A study of Homo sapiens with 20 samples.

Results

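Genes of cholesterol synthesis and of its sterol-sensing control were measured by RNA-seq in U2OS, a human osteosarcoma cell line, before and after interferon gamma (IFNγ). The group was set as a list of 32 named genes among the 43366 genes of the count table. They were chosen by their known role in the pathway, with earlier results of these data known. All 32 were found in the table, and 31 of them, without CH25H, carried enough counts to be tested. The 20 libraries came from 5 WT clones and 5 ZBTB48 KO clones, and every clone gave an untreated library and a library made after 24 h in medium with IFNγ at 250 U/ml. ZBTB48 is a zinc finger protein that binds telomeric repeats and acts as a transcription factor. Each KO culture descended from a single cell, so a clone carries its own history as well as its genotype. The labels tie the treated and the untreated library of a number to the same clone.

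Total counts ranged from 46652288 to 72952859 per library. The unit of levels is CPM, a count divided by the library size that edgeR's TMM method gives, and positive log2 fold changes mean higher after IFNγ or higher in WT. ZBTB48 stood at 8.74, 8.05, 8.86, 9.19 and 9.08 CPM in untreated WT clones 1 to 5, and at 1.27, 1.94, 11.3, 3.18 and 4.04 CPM in untreated KO clones 1 to 5. KO clone 3 was therefore above every untreated WT clone in ZBTB48 mRNA, and after IFNγ it again stood highest, at 16.0 CPM. Counts of mRNA do not show whether a clone makes the protein, so they do not decide the label. The deviations of treated and untreated libraries of one clone from their group means correlated over 21052 genes at Pearson's r of 0.632 to 0.802 in the WT clones and of 0.597 to 0.791 in KO clones 1 to 3, whereas KO clones 4 and 5 gave -0.0196 and 0.0448. Many, but not all, of the counts and estimates that rest on pairs of libraries labelled KO are therefore also given without KO clones 4 and 5. The osteoblast collagen gene COL1A1 was at 279 CPM or more in every library, while COL1A2 lay between 0 and 0.955 CPM and was at 0 in 4 libraries. The leukocyte markers PTPRC, CD3E, CD14, LYZ and CD79A were at 1.08 CPM or less, with CD3E at 0 in 19 of 20 libraries but PTPRC and CD79A at 0 in none. Of the epithelial markers, KRT14 ranged from 0.235 to 43.8 CPM, EPCAM from 0.119 to 12.6 CPM, CDH1 from 0.0181 to 4.61 CPM and KRT5 from 0 to 1.43 CPM. The interferon-induced genes IRF1, GBP1, GBP5 and IDO1 rose after IFNγ in both WT and KO clones.

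Cells build cholesterol from acetyl-CoA through the mevalonate arm, which ends in farnesyl diphosphate, and then through squalene and lanosterol. The endoplasmic reticulum proteins SCAP and INSIG1 hold the membrane-bound SREBP transcription factors when sterols are plentiful. When sterols run low, SCAP escorts SREBPs to the Golgi, where they are cut, and the released fragment enters the nucleus and switches on the synthesis genes. Excess sterols are instead read as oxysterols by LXR receptors, which switch on cholesterol exporters. CH25H, an interferon-induced enzyme in macrophages, makes an oxysterol that blocks SREBP release.

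The promoters of the 4 genes that fell in WT clones without pairing (INSIG1, MYLIP, MVK and EBP), of HMGCS1 and ABCA1, and of the master regulator SREBF2 are shown because SREBPs act at short DNA elements close to the start site, together with the factor NF-Y. The sequences are from RefSeq on GRCh38.p14, which had windows for 28 of the 32 genes by symbol. Each shows the 250 bases before the start. For MVK that start, and the window before it, lie inside the counted gene, whose first base is 109573272 on chr12. Capitals mark the sterol regulatory element TCACNCCAC, the NF-Y box CCAAT and the E-box CACGTG on either strand. HMGCS1 lies at chr5:43313413-43313662 (minus strand), MVK at chr12:109573544-109573793 (plus strand), EBP at chrX:48521558-48521807 (plus strand), SREBF2 at chr22:41832855-41833104 (plus strand), INSIG1 at chr7:155297628-155297877 (plus strand), ABCA1 at chr9:104928156-104928405 (minus strand) and MYLIP at chr6:16128836-16129085 (plus strand).
HMGCS1: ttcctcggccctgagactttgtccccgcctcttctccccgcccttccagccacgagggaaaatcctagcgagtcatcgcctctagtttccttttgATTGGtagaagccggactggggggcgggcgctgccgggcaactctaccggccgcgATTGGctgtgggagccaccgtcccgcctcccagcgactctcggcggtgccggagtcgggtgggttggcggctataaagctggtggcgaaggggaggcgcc
MVK: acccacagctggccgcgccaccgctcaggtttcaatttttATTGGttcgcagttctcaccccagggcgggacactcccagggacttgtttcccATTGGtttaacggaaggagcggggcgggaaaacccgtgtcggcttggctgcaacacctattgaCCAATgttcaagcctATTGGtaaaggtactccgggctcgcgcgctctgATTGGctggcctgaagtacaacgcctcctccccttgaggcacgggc
EBP: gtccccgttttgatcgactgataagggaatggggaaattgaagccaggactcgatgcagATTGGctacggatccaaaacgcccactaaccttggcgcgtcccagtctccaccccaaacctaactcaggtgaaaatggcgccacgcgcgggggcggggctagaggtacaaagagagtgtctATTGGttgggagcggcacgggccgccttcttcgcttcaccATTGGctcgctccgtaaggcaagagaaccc
SREBF2: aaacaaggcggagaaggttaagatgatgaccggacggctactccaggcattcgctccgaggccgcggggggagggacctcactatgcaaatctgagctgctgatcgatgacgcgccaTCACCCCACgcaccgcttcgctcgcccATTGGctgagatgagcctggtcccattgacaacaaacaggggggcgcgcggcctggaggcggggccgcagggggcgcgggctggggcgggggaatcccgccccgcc
INSIG1: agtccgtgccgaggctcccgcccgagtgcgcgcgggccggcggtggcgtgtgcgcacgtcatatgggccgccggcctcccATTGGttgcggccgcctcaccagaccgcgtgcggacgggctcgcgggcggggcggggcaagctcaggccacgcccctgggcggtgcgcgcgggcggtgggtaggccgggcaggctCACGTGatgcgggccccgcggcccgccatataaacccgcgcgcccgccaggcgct
ABCA1: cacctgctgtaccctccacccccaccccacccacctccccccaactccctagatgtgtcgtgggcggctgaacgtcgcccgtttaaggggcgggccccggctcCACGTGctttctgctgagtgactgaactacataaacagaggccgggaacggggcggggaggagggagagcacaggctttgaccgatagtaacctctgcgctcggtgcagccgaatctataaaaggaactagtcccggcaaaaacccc
MYLIP: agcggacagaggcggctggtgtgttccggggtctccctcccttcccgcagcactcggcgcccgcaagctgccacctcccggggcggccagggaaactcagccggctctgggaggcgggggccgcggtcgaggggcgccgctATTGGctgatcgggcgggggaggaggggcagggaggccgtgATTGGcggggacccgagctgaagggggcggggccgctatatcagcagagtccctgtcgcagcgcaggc

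Searches covered windows of 300 bases, from 250 before the start to 50 after it, on both strands. The NF-Y box was present in 18 of the 28 windows, and in 12 of the 15 windows of synthesis enzymes, against 35.7% of all 27305 gene windows. MVK (in a window inside the counted gene) and NSDHL held 5 NF-Y boxes each, MSMO1 held 4, and EBP, FDPS and MVD held 3 each. The sterol regulatory element in this strict spelling was found in SREBF2 alone, its first base 133 bases before the start (position -133), against 1.15% of all windows. E-boxes lay in the windows of ABCA1, INSIG1, LSS, SC5D and SCAP, 5 of 28 against 7.43% of all windows. For the interferon pathway, neither the GAS element TTCNNNGAA nor the ISRE, GAAA repeated after any 2 bases, was present in any of the 28 windows, against 7.88% and 3.65% of all windows. The LXR element, AGGTCA repeated after any 4 bases, was also in 0 of the 28, and it is rare everywhere, in 0.0183% of windows. The telomeric repeat TTAGGG, to which ZBTB48 binds, was present in FADS1, PMVK and SCAP, 3 of 28 against 8.94%. Matches of different motifs did not overlap in these windows, and a match describes letters and not binding.

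In untreated WT clones the median level per kilobase of exon spanned the range from NPC2, a lysosomal cholesterol carrier, at 432 CPM per kb, to the cholesterol exporter ABCA1 at 1.16 CPM per kb. The fatty acid desaturases SCD and FADS2 followed NPC2 at 98.4 and 62.5 CPM per kb. Among the enzymes EBP, FDPS, FDFT1 and SQLE were the most abundant, at 47.2, 43.6, 37.2 and 37.1 CPM per kb, and IDI1 and TM7SF2 were low at 5.50 and 3.37 CPM per kb. SREBF1 stood at 40.9 and SREBF2 at 21.2 CPM per kb. CH25H had no count in 18 of 20 libraries. It had 1 count in untreated KO clone 4 and 7 counts, or 0.126 CPM, in IFNγ-treated KO clone 4, and the limit that a count of 0 allows, 3 counts, was 0.0409 to 0.0608 CPM. No induction of CH25H by IFNγ was detectable at this depth in any of the WT clones.

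**Figure D1:**
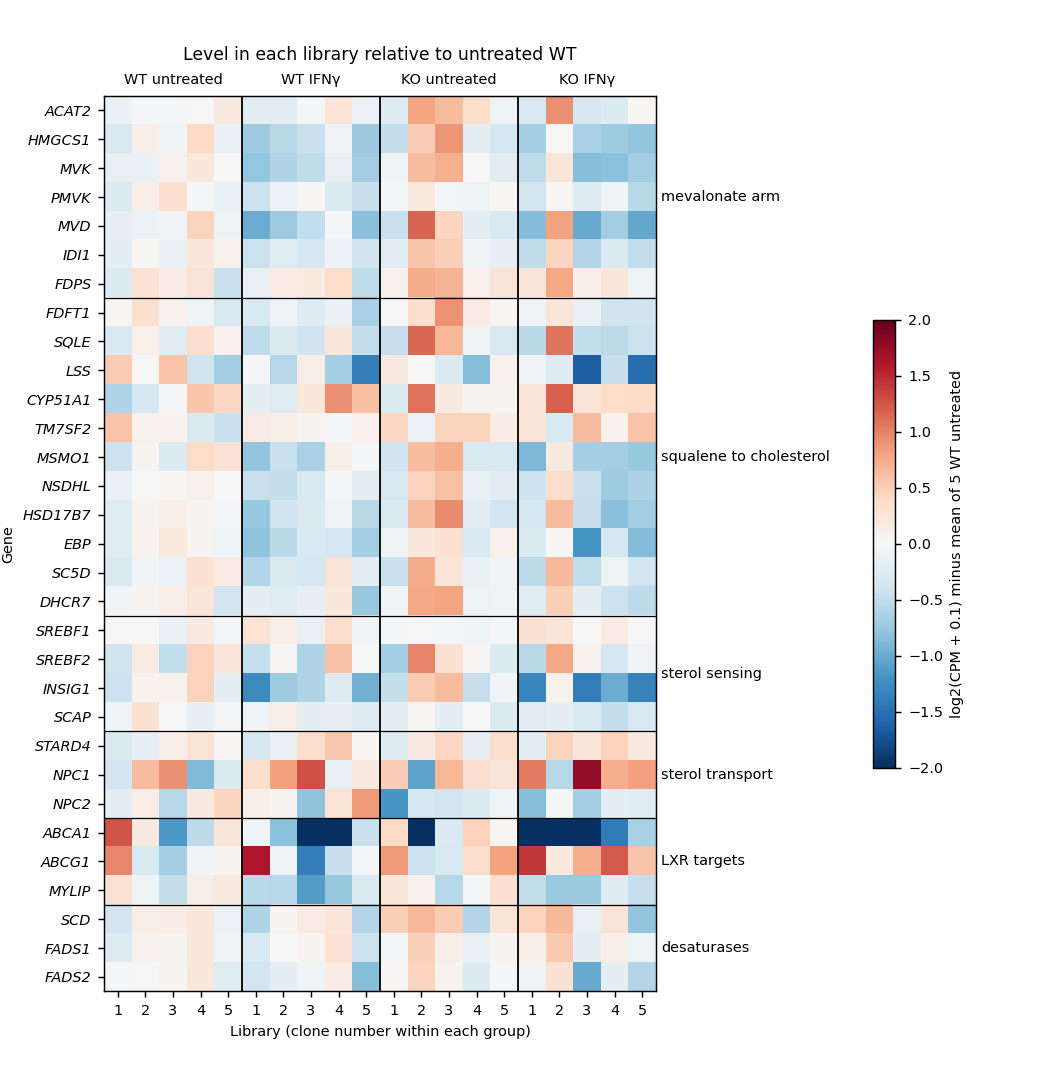
Level of 31 genes (rows, by role) in each of the 20 libraries (columns, by group and clone number), as log2(CPM + 0.1) minus the mean of the 5 untreated WT clones. The colour scale ends at 2 in both directions, and larger values take the end colour. Most enzyme rows are blue in IFNγ-treated WT clones, and those of KO clone 2 are mostly red both untreated and treated.

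The first comparison asked what IFNγ does to these genes in WT clones. After 24 h most enzymes of the mevalonate arm and of the later steps were lower than in the untreated library of the same clone. In RNA from whole cultures, less RNA in every cell and a loss in some cells cannot be told apart. In the comparison that treats the 10 libraries as unpaired, 4 of the 31 tested genes fell, namely INSIG1, MYLIP, MVK and EBP, and 0 rose. Over all 19522 genes tested 4.3% fell and 6.98% rose at the same threshold, an adjusted p under 0.05. Log2 fold changes lay below 0 for 23 of the 31, against 53% of all genes, with a median of -0.26 against -0.03. With the clone as a block, which compares each treated library with its own untreated one, 18 of the 31 fell and 2 rose, against 24.1% and 22.9% of all genes. In the unpaired comparison the count of falls was 0 without WT clone 2 or WT clone 5, 1 without WT clone 1 and 2 without WT clone 3. Over all genes, 336 of 19606, 577 of 19736, 315 of 19666 and 513 of 19568 fell in these fits, in that order. By the stricter rule of the study, more than 2-fold with an adjusted p under 0.01, 0 of the 31 passed unpaired, against 3% of all genes. With the block 1 of the 31, ABCA1, fell by that rule, where 547 of 19522 genes fell and 867 rose. In the block, the same 18 genes fell, and the same 2 rose, whichever clone was left out, and SCAP also fell without WT clone 1. Scaling by library totals alone moved the median of all genes to -0.10, and lower genes then made up 49% of all calls in the unpaired comparison instead of 38.1%, while the same count of 4 members fell.

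In the mevalonate arm, 1 of 7 enzymes fell unpaired and 5 of 7 with the clone block, against 4.3% and 24.1% of all genes. HMGCS1, which condenses acetoacetyl-CoA with acetyl-CoA, stood at 117, 159, 138, 192 and 133 CPM in untreated WT clones 1 to 5 and at 88.8, 98.9, 108, 139 and 87.3 CPM after IFNγ. Every clone was lower after treatment, but treated clone 4, the highest, reached into the untreated range. Its log2 fold change was -0.52 (SE 0.16, adjusted p = 0.0668) unpaired and -0.52 (SE 0.05, adjusted p = 1.12e-05) with the clone block. MVK, mevalonate kinase, went from 20.2, 20.2, 23.6, 25.7 and 22.2 CPM to 12.9, 14.7, 15.7, 20.2 and 13.8 CPM in clones 1 to 5. It was lower in each clone, with treated clone 4 level with the lowest untreated clones. The log2 fold change was -0.55 (SE 0.14, adjusted p = 0.0311) unpaired and -0.56 (SE 0.07, adjusted p = 5.49e-05) with the block. MVK shares exonic bases with MMAB on the opposite strand.

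MVD, which decarboxylates mevalonate diphosphate, showed the largest estimate of this arm, -0.61 (SE 0.20, adjusted p = 0.0703) unpaired and -0.63 (SE 0.07, adjusted p = 1.88e-05) with the block. IDI1, the isomerase of the isoprene unit, changed by -0.32 (SE 0.06, adjusted p = 0.0013) and PMVK, phosphomevalonate kinase, by -0.27 (SE 0.06, adjusted p = 0.00255) with the block, and neither passed unpaired. FDPS, which makes farnesyl diphosphate, gave 0.00 (SE 0.19) unpaired, its sign depended on the scaling, and it was lower in only 2 of 5 clones. ACAT2, the acetoacetyl-CoA thiolase, gave -0.08 with the block and did not pass. Its exons overlap SOD2, SOD2-OT1 and TCP1 on the opposite strand.

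From squalene to cholesterol, 1 of 11 enzymes fell unpaired, against 4.3% of all genes. With the clone block 9 fell and 1 rose, against 24.1% and 22.9% of all genes. EBP, the sterol isomerase, stood at 43.2, 53.8, 58.8, 53.1 and 48.5 CPM untreated and at 29.3, 35.4, 41.5, 40.1 and 31.8 CPM after IFNγ in clones 1 to 5. EBP was the single gene of the list whose treated and untreated WT groups did not overlap, where 3.88% of all genes separated in this direction, and 0 of the list but 7.27% of all genes separated in the other. Its log2 fold change was -0.54 (SE 0.12, adjusted p = 0.0162) unpaired and -0.55 (SE 0.05, adjusted p = 6.2e-06) with the block. SQLE, the squalene epoxidase, went from 94.3, 126, 102, 147 and 124 CPM to 82.2, 96.7, 88.4, 138 and 84.0 CPM. Each clone was lower, by little in clone 4, and the groups overlapped widely. SQLE gave -0.29 (SE 0.17, adjusted p = 0.325) unpaired and -0.30 (SE 0.06, adjusted p = 0.00119) with the block.

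LSS, the lanosterol synthase, varied widely between clones, from 74.4 CPM in clone 5 to 178 CPM in clone 3 among untreated libraries, and it gave -0.51 (SE 0.30, adjusted p = 0.332) unpaired and -0.52 (SE 0.06, adjusted p = 1.68e-05) with the block. The remaining falls with the block were HSD17B7 at -0.43, MSMO1 at -0.38, FDFT1 (squalene synthase) at -0.30, NSDHL at -0.30, SC5D at -0.25 and DHCR7, which takes the last step of one branch, at -0.24 on the log2 scale. CYP51A1, the lanosterol demethylase, moved the other way. It stood at 48.8, 58.7, 72.3, 108 and 98.6 CPM untreated and at 64.9, 62.8, 86.6, 139 and 112 CPM after IFNγ. CYP51A1 was higher in 5 of 5 clones, and rose with the block at 0.25 (SE 0.05, adjusted p = 0.00164), though not unpaired at 0.26 (SE 0.28, adjusted p = 0.643). Its exons overlap CYP51A1-AS1 on the opposite strand. TM7SF2, a sterol reductase, gave 0.03 unpaired, and its sign turned with library totals (-0.04).

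Among the sterol sensors, INSIG1 fell and the SREBP genes themselves did not pass either test. INSIG1, which retains SCAP in the endoplasmic reticulum and is itself an SREBP target, stood at 27.4, 38.6, 38.9, 50.5 and 32.2 CPM untreated and at 15.1, 22.5, 24.1, 30.7 and 18.9 CPM after IFNγ. It was lower in each of the 5 clones, and treated clone 4 alone exceeded the lowest untreated clone. INSIG1 gave -0.77 (SE 0.21, adjusted p = 0.0349) unpaired and -0.78 (SE 0.06, adjusted p = 9.94e-07) with the block, the largest estimate outside the LXR targets.

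SREBF2, which encodes the SREBP that drives cholesterol synthesis, stood at 189.7, 282, 179, 348 and 299.7 CPM untreated and at 183, 255, 164, 378 and 252 CPM after IFNγ. The spread between clones was far wider than any change within them, and clone 4 was higher after treatment. SREBF2 gave -0.09 (SE 0.25, adjusted p = 0.886) unpaired and -0.10 (SE 0.05, adjusted p = 0.116) with the block. SREBF1, whose SREBP forms serve fatty acid synthesis more, stood at 213, 210.4, 192, 239 and 206 CPM and then at 255, 231, 190.4, 269 and 202 CPM. It was higher in 3 clones and lower in 2, with 0.10 (SE 0.12, adjusted p = 0.677) unpaired and 0.09 (SE 0.05, adjusted p = 0.139) with the block. SCAP gave -0.12 (SE 0.05, adjusted p = 0.0539) with the block.

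The LXR targets, cholesterol exporters and a ubiquitin ligase of lipoprotein receptors, split. ABCA1 stood at 25.4, 12.1, 4.72, 7.30 and 12.5 CPM untreated and at 10.2, 5.97, 1.92, 2.29 and 7.77 CPM after IFNγ. Each clone was lower after treatment, while the untreated clones spanned a wide range and the groups overlapped. ABCA1 gave -1.15 (SE 0.53, adjusted p = 0.208) unpaired and -1.19 (SE 0.14, adjusted p = 3.4e-05) with the block, the largest change of the list. MYLIP, the ubiquitin ligase, went from 29.96, 22.8, 17.7, 26.5 and 27.8 CPM to 16.8, 16.5, 11.3, 14.4 and 20.02 CPM. All 5 clones were lower, with treated clone 5 above untreated clone 3. MYLIP gave -0.67 (SE 0.19, adjusted p = 0.0424) unpaired and -0.67 (SE 0.08, adjusted p = 5.49e-05) with the block. ABCG1, the other exporter, gave 0.15 unpaired and -0.07 with the block and passed in neither.

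For sterol transport, NPC1, which exports cholesterol from lysosomes, stood at 41.4, 82.4, 100.3, 28.9 and 43.5 CPM untreated and at 68.0, 94.8, 131, 48.0 and 60.4 CPM after IFNγ. NPC1 was higher in 5 of 5 clones and rose with the block, 0.48 (SE 0.07, adjusted p = 0.000178), but did not pass unpaired, 0.43 (SE 0.35, adjusted p = 0.507). Its exons overlap RMC1 on the opposite strand. NPC2 and STARD4 did not pass in either form, with 0.09 and 0.08 in the block. Of the desaturases, FADS2 fell with the block, -0.28 (SE 0.07, adjusted p = 0.00447). SCD, the stearoyl-CoA desaturase, stood at 365, 516, 521, 548 and 437 CPM untreated and at 308, 491, 531, 561 and 314 CPM after IFNγ, lower in 3 clones and higher in 2, and gave -0.13 (SE 0.19, adjusted p = 0.748) unpaired and -0.16 (SE 0.07, adjusted p = 0.0754) with the block. FADS1 gave -0.09 with the block and did not pass, and its exons overlap those of FADS2 on the opposite strand.

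**Figure D2:**
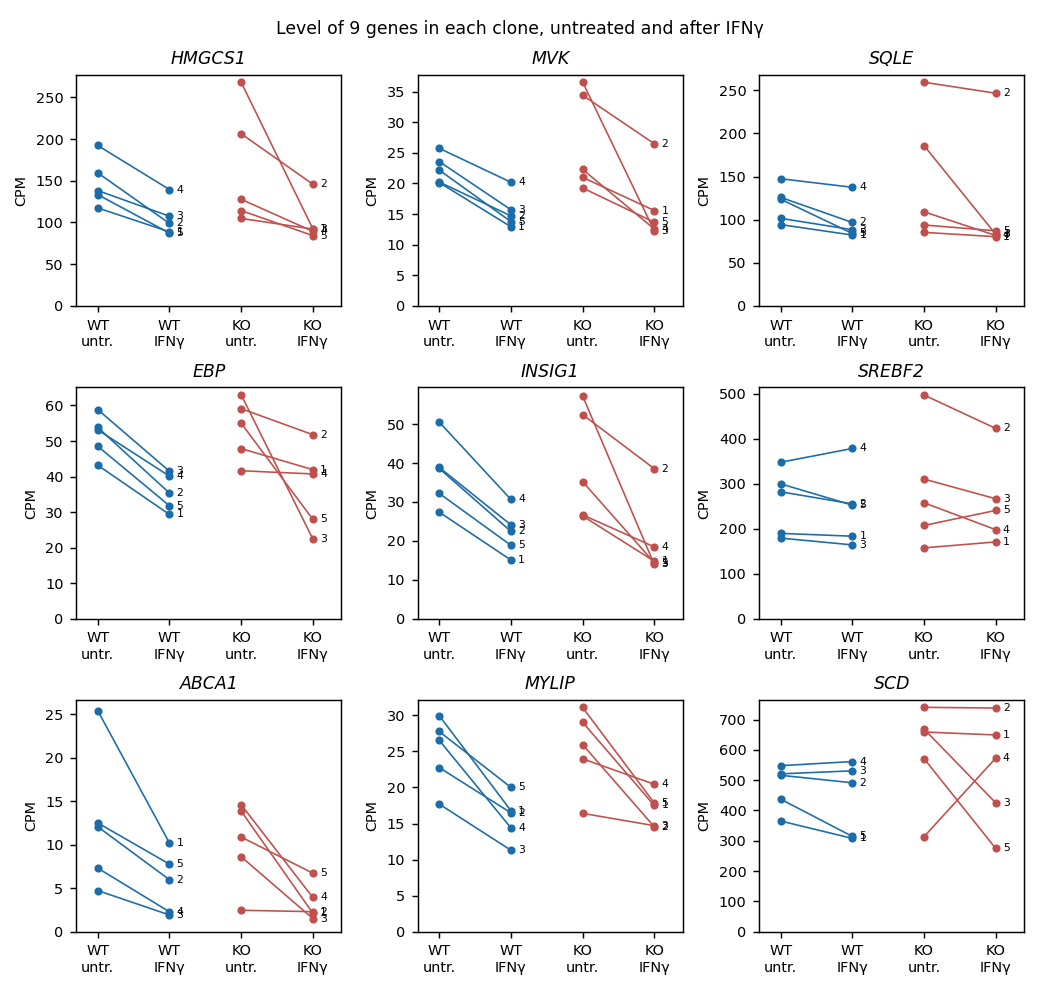
CPM (vertical axes, from 0) of 9 genes in each clone, untreated (untr.) and after IFNγ, with a line joining the libraries of a clone and the clone number beside the treated point (blue WT, red KO). Lines slope down in each WT clone for HMGCS1, MVK, SQLE, EBP, INSIG1, ABCA1 and MYLIP, while SREBF2 and SCD have lines in both directions.

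Read clone by clone, as differences of log2(CPM + 0.1), 18 of the 31 genes (58.1%) were lower in 5 of 5 WT clones, where 25% of all genes were. CYP51A1 and NPC1 were higher in 5 of 5, as were 24.6% of all genes. Of the 18 synthesis enzymes, 14 (77.8%) were lower in every WT clone and 1, CYP51A1, was higher in every one. The median difference of the 18 enzymes was -0.31, -0.39, -0.32, -0.12 and -0.38 in WT clones 1 to 5, against 0.02, -0.02, -0.01, 0.01 and -0.03 for all genes. WT clone 4 thus moved least. Its summed enzyme level was also the highest of the WT clones before treatment, at 1292 CPM, and went to 1189 CPM. In WT clones 1, 2, 3 and 5 the sum went from 1044 to 857, from 1199 to 911, from 1192 to 989 and from 1056 to 816 CPM.

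**Figure D3:**
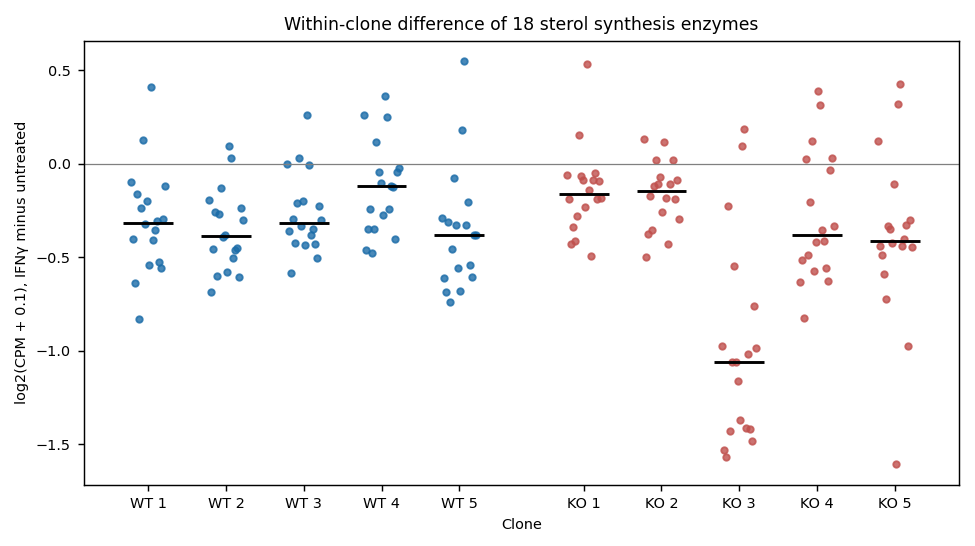
Difference in log2(CPM + 0.1) between the IFNγ-treated and the untreated library of each clone (vertical axis) for the 18 sterol synthesis enzymes (points), with the median as a black bar. Medians are below 0 in each of the 10 clones, from -0.12 in WT clone 4 to -1.06 in KO clone 3.

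The same treatment was then read in the libraries labelled KO. None of the 31 tested genes passed unpaired in edgeR, where 2.47% of all 19385 genes fell and 5.41% rose. Of the 31, 8 had an unadjusted p under 0.05 there, as did 4548 of all genes. DESeq2 called 3 falls (INSIG1, ABCA1 and MYLIP), and 1069 of the 19385 genes fell in it. The edgeR log2 fold changes lay below 0 for 24 of the 31, against 53.1% of all genes, with a median of -0.31, or -0.18 without KO clone 3. With the clone as a block, 8 fell, namely ABCA1, INSIG1, MVK, MVD, MSMO1, HMGCS1, MYLIP and DHCR7, and NPC1 rose, against 9.95% and 11.1% of all genes. All 8 also fell in the WT block. At the study's cut-offs 0 passed, against 1.96% of all genes, and the treated and untreated KO groups overlapped for every listed gene, where 3.41% of all genes separated downwards and 6.05% upwards. Without KO clones 4 and 5 none fell in the block, 12 of the 31 had an unadjusted p under 0.05, and NPC1 and ABCG1 rose, against 6.24% and 7.68% of all genes. The block count of falls was also 0 without KO clone 1, 5 without KO clone 2, 6 without KO clone 3 and 5 without either KO clone 4 or KO clone 5. Over all genes, 545 of 19408, 1372 of 19666, 711 of 19371, 1656 of 19387 and 1643 of 19513 fell in these 5 block fits. With all 5 KO clones 1928 of 19385 genes fell in the block. Unpaired, leaving out KO clone 2 gave 4 falls (MVK, MVD, INSIG1 and ABCA1), where 755 of 19666 genes fell.

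HMGCS1 stood at 105, 206, 268, 128 and 114 CPM in untreated KO clones 1 to 5 and at 92.1, 146, 92.6, 89.4 and 84.3 CPM after IFNγ. All 5 were lower, with by far the largest drop in clone 3. HMGCS1 gave -0.71 (SE 0.27, adjusted p = 0.138) unpaired and -0.63 (SE 0.18, adjusted p = 0.0449) with the block, and -0.76 (SE 0.27, adjusted p = 0.118) in the block without KO clones 4 and 5. INSIG1 went from 26.4, 52.4, 57.3, 26.7 and 35.2 CPM to 14.8, 38.5, 14.0, 18.5 and 14.4 CPM. Clone 2 remained above several untreated clones, and the other 4 were below every untreated clone. INSIG1 gave -0.99 (SE 0.33, adjusted p = 0.0953) unpaired and -1.02 (SE 0.23, adjusted p = 0.0192) with the block, and -1.12 (SE 0.32, adjusted p = 0.0774) in the block without KO clones 4 and 5.

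ABCA1 stood at 13.9, 2.46, 8.62, 14.6 and 10.9 CPM untreated and at 2.13, 2.30, 1.51, 3.93 and 6.72 CPM after IFNγ in KO clones 1 to 5. Clone 2 was already low before treatment, and the others were below their untreated partners. ABCA1 gave -1.60 (SE 0.51, adjusted p = 0.0833) unpaired and -1.59 (SE 0.41, adjusted p = 0.0321) with the block, and -1.84 (SE 0.58, adjusted p = 0.0942) in the block without KO clones 4 and 5. ABCG1 was higher in 4 of 5 KO clones, with 0.53 (SE 0.31, adjusted p = 0.331) unpaired and 0.57 (SE 0.17, adjusted p = 0.0519) with the block, and 0.72 (SE 0.14, adjusted p = 0.0201) without KO clones 4 and 5. The exporters thus gave estimates of opposite sign in the KO clones. NPC1 went from 74.8, 25.6, 84.9, 67.5 and 64.4 CPM to 109, 35.8, 183, 88.2 and 94.3 CPM, higher in every clone, with 0.68 (SE 0.39, adjusted p = 0.335) unpaired and 0.61 (SE 0.11, adjusted p = 0.00959) with the block, and 0.69 (SE 0.14, adjusted p = 0.0264) without KO clones 4 and 5.

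SQLE stood at 85.3, 259, 186, 109 and 93.8 CPM untreated and at 80.3, 247, 83.1, 81.7 and 87.1 CPM after IFNγ. KO clone 2 held more than 2-fold the level of every other treated KO clone, and clone 3 came down from a high level to that of the rest. SQLE gave -0.35 (SE 0.40, adjusted p = 0.665) unpaired and -0.37 (SE 0.17, adjusted p = 0.152) with the block, and -0.46 (SE 0.23, adjusted p = 0.231) without KO clones 4 and 5. SREBF2 stood at 158, 497, 310.2, 258 and 207 CPM and then at 171, 423, 267, 198 and 241 CPM, lower in 3 clones and higher in 2, with -0.10 (SE 0.10, adjusted p = 0.524) in the block and -0.13 without KO clones 4 and 5. SREBF1 was higher in 5 of 5 KO clones and gave 0.18 (SE 0.08, adjusted p = 0.15) in the block and 0.19 without KO clones 4 and 5. SCD moved in both directions, from 659, 740.2, 668, 313 and 571 CPM to 649, 738, 425, 573 and 275 CPM in clones 1 to 5, with -0.16 (SE 0.28, adjusted p = 0.788) unpaired and -0.18 (SE 0.25, adjusted p = 0.647) with the block. Clones 4 and 5, whose numbers did not correlate, moved oppositely. The SCD estimate of the block was -0.25 without both, -0.44 without KO clone 4, -0.05 without KO clone 3 and 0.04, the other sign, without KO clone 5.

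Clone by clone, 14 of the 31 genes (45.2%) were lower in 5 of 5 KO clones, against 17.5% of all genes, including 10 of the 18 enzymes (55.6%). CYP51A1, SREBF1 and NPC1 were higher in 5 of 5, as were 16.5% of all genes. In KO clones 1 to 3 alone, 19 of the 31 were lower in 3 of 3, including 13 of the 18 enzymes, against 28.2% of all genes. The enzyme medians were -0.16, -0.14, -1.06, -0.38 and -0.41 in KO clones 1 to 5. The summed enzyme level was 1773 CPM in untreated KO clone 2 and 1710 CPM in untreated KO clone 3, above every other untreated library, where it lay between 1003 and 1292 CPM. After IFNγ it was 1581 CPM in clone 2 and 830 CPM in clone 3. KO clone 3 is the one whose ZBTB48 mRNA stood above every untreated WT clone, and the part of that in its larger drop was not tested.

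**Figure D4:**
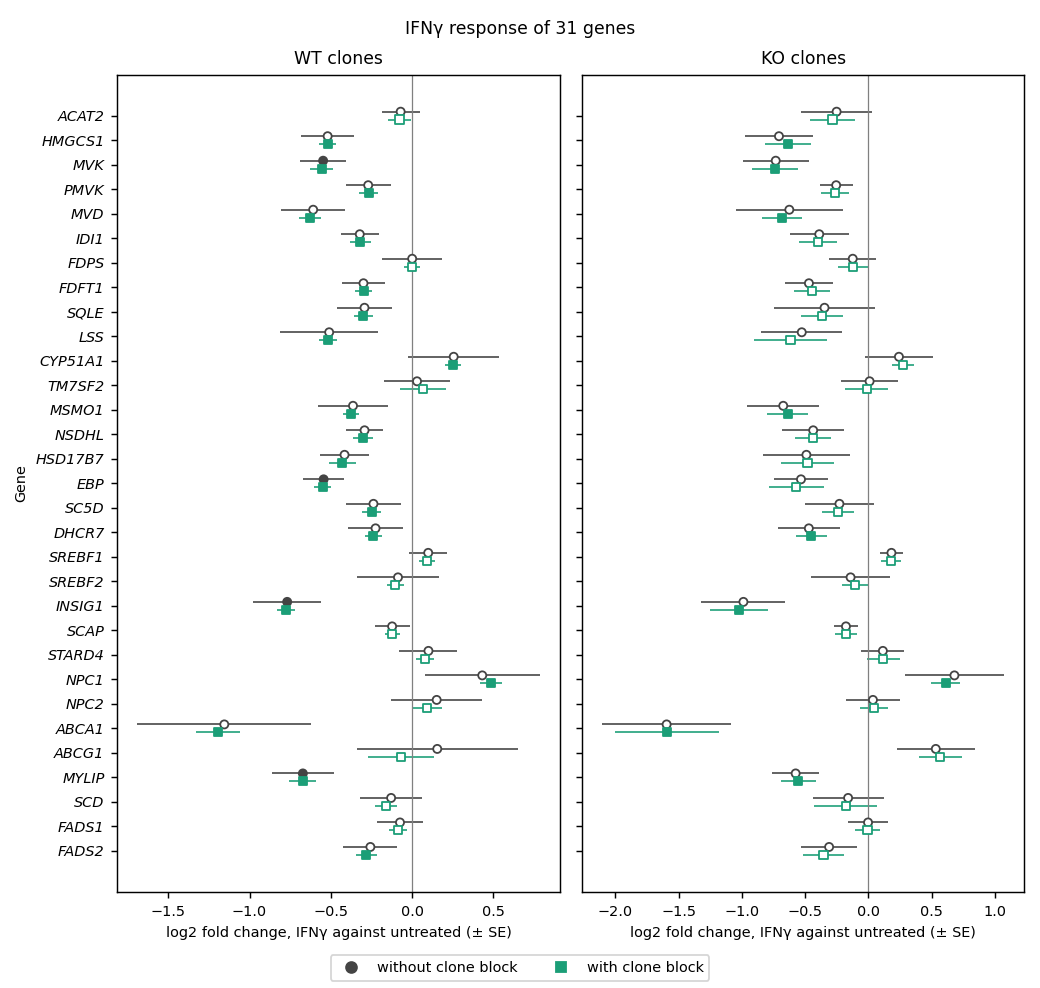
Log2 fold change of IFNγ-treated against untreated libraries (horizontal axes, bars are SE) for 31 genes in WT and in KO clones, without (circles) and with (squares) the clone as a block. Filled symbols passed an adjusted p under 0.05: 4 circles and 20 squares in WT, and 0 circles and 9 squares in KO.

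Whether the response differs between WT and KO clones was tested over all 20 libraries. In edgeR 0 of 31 genes passed, 0 had an unadjusted p under 0.05, and 0 of 21052 genes passed in all (0%). DESeq2 also called 0, with 0 members at an unadjusted p under 0.05. With the clone as a block 0 passed and 1, ABCG1, had an unadjusted p under 0.05, with a difference of -0.66 (SE 0.28), WT response minus KO response, or -0.80 (SE 0.28) without KO clones 4 and 5. The differences, WT minus KO, were 0.17 (SE 0.33) for HMGCS1, 0.20 (SE 0.41) for INSIG1, 0.04 (SE 0.46) for SQLE and 0.42 (SE 0.77) for ABCA1. With these unpaired SEs, a difference of the order of the response itself was not detectable. The median difference over the 31 was 0.04 and turned to -0.07 without KO clone 3.

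The remaining comparisons set WT against KO clones in each condition. No member passed in untreated or in IFNγ-treated clones, by edgeR or DESeq2, and 0 had an unadjusted p under 0.05 with either tool. Few genes passed at all in edgeR: 0.0308% were higher in untreated WT, 0.0206% were higher in treated WT, and 0% were lower in either. The WT and KO groups overlapped for each of the 32 genes in both conditions, where 0.528% of all genes were fully higher and 0.431% fully lower in untreated WT, and 0.573% and 0.253% in treated WT. At the study's cut-offs 0.0154% of all genes passed untreated and 0.0155% treated, with no member among them. In untreated clones 25 of the 31 had estimates below 0, that is lower in WT, against 50.3% of all genes, with a median of -0.12. This rested on KO clones 2 and 3: without KO clone 2 it was 16 of the 31 with a median of -0.01, and without KO clone 3 it was 19 with a median of -0.05. Without KO clones 4 and 5 it was 25 with a median of -0.26, and 5 had an unadjusted p under 0.05 in edgeR. In treated clones 23 of the 31 lay below 0, against 52.7% of all genes, with a median of -0.09. Without KO clone 2 that became 11 with a median of 0.15. HMGCS1 gave -0.14 (SE 0.25, adjusted p = 0.989) untreated and 0.04 (SE 0.18, adjusted p = 0.998) treated. Its sign turned to positive (0.11) in untreated clones without KO clone 3. SQLE gave -0.30 (SE 0.29, adjusted p = 0.982) untreated and -0.25 (SE 0.32, adjusted p = 0.996) treated, and turned to 0.01 and 0.22 without KO clone 2. INSIG1, with -0.07 (SE 0.24, adjusted p = 0.991) untreated and 0.14 (SE 0.30, adjusted p = 0.996) treated, also changed sign with single clones left out.

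SREBF1 gave 0.05 (SE 0.09, adjusted p = 0.99) untreated and -0.05 (SE 0.12, adjusted p = 0.996) treated. SREBF2 gave -0.13 (SE 0.29, adjusted p = 0.99) and -0.09 (SE 0.27, adjusted p = 0.996). ABCA1 gave 0.30 (SE 0.50, adjusted p = 0.989) and 0.73 (SE 0.53, adjusted p = 0.996), and SCD -0.30 (SE 0.21, adjusted p = 0.981) and -0.28 (SE 0.26, adjusted p = 0.996). The largest untreated estimates were NPC2, higher in WT at 0.45 (SE 0.22, adjusted p = 0.981), and FDPS, lower in WT at -0.37 (SE 0.18, adjusted p = 0.981). ZBTB48 itself gave 1.02 (SE 0.48, adjusted p = 0.981) untreated and 0.82 (SE 0.53, adjusted p = 0.996) treated. Without KO clone 3 it gave 1.76 (SE 0.32, adjusted p = 0.493) and 1.67 (SE 0.35, adjusted p = 0.64), and it did not pass either. Since ZBTB48 mRNA varied between the KO clones, this does not show what change in a listed gene would be missed.

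**Figure D5:**
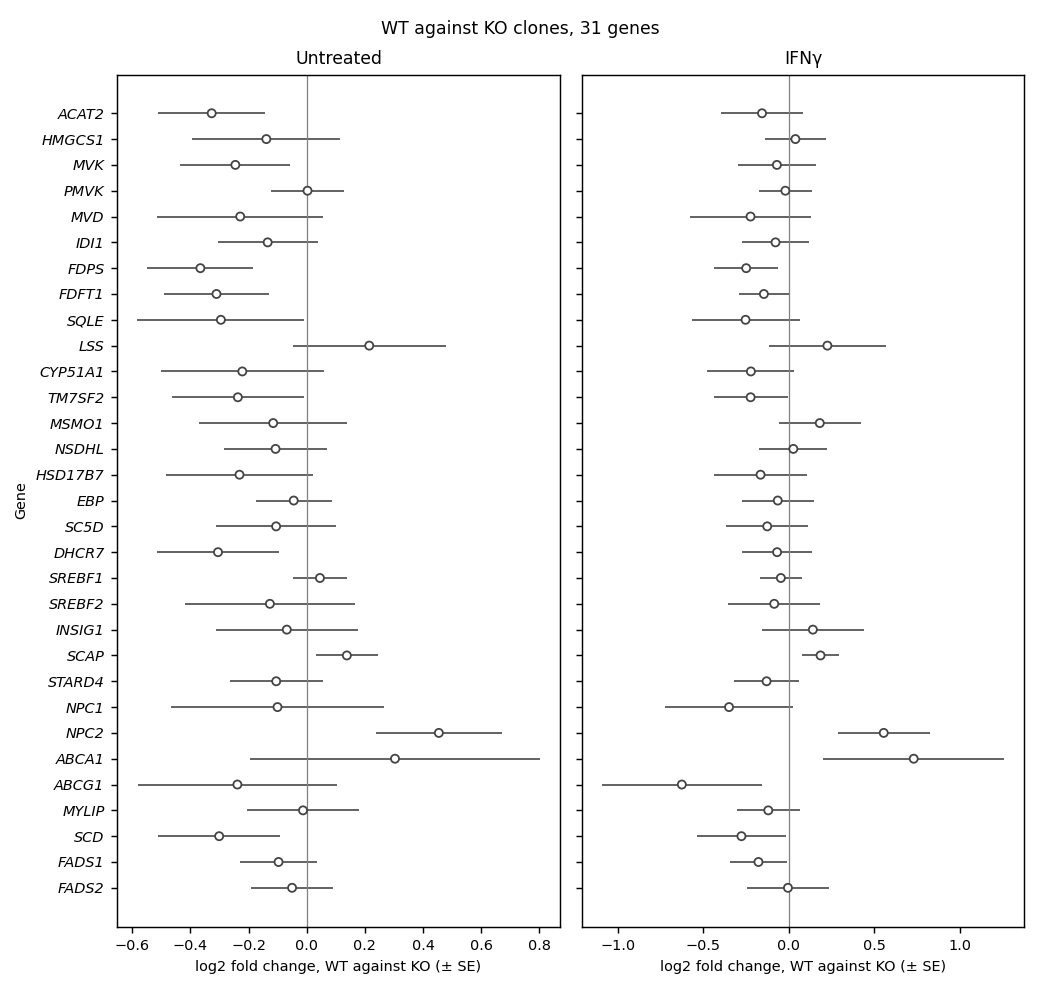
Log2 fold change of WT against KO clones (horizontal axes, bars are SE) for 31 genes, untreated and after IFNγ, without a block. Every symbol is open, since none passed an adjusted p under 0.05, and most untreated estimates lie left of 0.

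Related genes that are not among the 32 were read in the same fits. Of 10 genes of SREBP-driven fatty acid synthesis, FASN, fatty acid synthase, fell in WT clones at -0.47 (SE 0.14, adjusted p = 0.048) and MID1IP1, an activator of acetyl-CoA carboxylase, rose at 1.16 (SE 0.17, adjusted p = 0.0014) unpaired. With the clone block 5 of the 10 fell and 2 rose in WT, against 24.1% and 22.9% of all genes. In KO 1 fell and 2 rose with the block, against 9.95% and 11.1%, and 1 fell and 1 rose without KO clones 4 and 5, against 6.24% and 7.68%. Of 19 tested genes of sterol handling, EBPL fell in WT at -0.61 (SE 0.13, adjusted p = 0.00991), and with the block 10 fell and 3 rose, against 24.1% and 22.9% of all genes. In the KO block 5 of 19 fell and 2 rose, against 9.95% and 11.1%, and without KO clones 4 and 5 it was 3 of 20 and 0, against 6.24% and 7.68%. The 3 that rose in WT were MBTPS2, a protease that cuts SREBPs, at 0.42, SOAT1, which esterifies cholesterol, at 0.42, and the LXR gene NR1H2 at 0.28. In KO clones MBTPS2 (0.57 (SE 0.12, adjusted p = 0.0167)) and SOAT1 (0.40 (SE 0.09, adjusted p = 0.019)) rose and EBPL (-0.60 (SE 0.16, adjusted p = 0.0461)) fell unpaired. Of 10 genes of the isoprenoid side branches, none passed in WT unpaired. With the block 4 rose, FNTA, PDSS1 and PGGT1B among them, and FNTB and ICMT fell, against 22.9% and 24.1% of all genes. In KO clones 1 rose and 0 fell unpaired, against 5.41% and 2.47%. The KO block also gave 1 and 0, against 11.1% and 9.95%, as it did without KO clones 4 and 5, against 7.68% and 6.24%.

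Proliferation and stress genes were read in the same fits. Of 10 proliferation genes 8 had estimates below 0 in WT clones, from -0.45 for AURKA to 0.17 for MCM2, none passed unpaired, and 7 fell with the block, against 53% of all genes below 0 and 24.1% that fell with the block. In KO clones 9 were below 0, against 53.1% of all genes, none passed unpaired, and 2 fell with the block, against 9.95%, or 1 without KO clones 4 and 5, against 6.24%. Of 8 heat-shock and immediate-early genes, HSPA1A (-3.04), FOS (-2.99), HSPA1B (-2.50) and HSPH1 (-0.67) fell and ATF3 (1.82) rose in WT clones unpaired. Of all genes 4.3% fell and 6.98% rose there. With the block 5 fell and 1 rose in WT, against 24.1% and 22.9%. In KO clones 3 fell and 1 rose unpaired, against 2.47% and 5.41%. The KO block gave 4 and 1, against 9.95% and 11.1%, and also 4 and 1 without KO clones 4 and 5, against 6.24% and 7.68%. The part of proliferation or stress in the lower enzyme levels was not tested.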

How the data were processed

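RNA of 20 cultures was sequenced as stranded mRNA libraries (paired reads). The authors deposited raw counts per RefSeq gene, made with STAR 2.7.9a on GRCh38 and featureCounts 2.4.0 from uniquely mapped reads; the strand setting of the counting is not given in the sources used here. Of the listed genes, 15 share exonic bases with a gene on the opposite strand. They are ACAT2, MVK, IDI1, FDPS, LSS, CYP51A1, SREBF1, SREBF2, INSIG1, SCAP, STARD4, NPC1, ABCA1, FADS1 and FADS2. Without strand, their reads could not be told from those of the opposite gene. On the same strand, NPC2 shares exonic bases with SYNDIG1L and MIR4709, and FADS1 with MIR1908. Unique mapping removes reads shared with near-identical copies.

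A comparison used its own 10 libraries and the quasi-likelihood test of edgeR 4.0.16 in R 4.3.3 (filterByExpr, TMM, robust fit), without a block, as the study's methods name none, and with Benjamini-Hochberg adjustment over all genes tested; the difference of responses used all 20 libraries. An SE is the size of the log2 fold change over the root of F. Since the labels give the clone of each library, the fit with the clone as a replicate block stands beside it. Replicate numbers of WT and KO clones share no clone, and correlated at -0.212 to 0.23. Unpaired p-values measure the spread of levels between clones of one cell line. With the clone block they measure the spread of the change within a clone, with 1 library per clone and condition. Alternatives were DESeq2 1.42.0 without shrinkage, other scaling, no filter, all 20 libraries in one fit, and leaving out clones; the block with each clone left out was added after seeing the data. The study's cut-offs (adjusted p under 0.01 and over 2-fold) were a second rule. 3 counts are the floor, and limits from counts cover counting error only. The tests were tried on simulated data.

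Members and gene lists were chosen with earlier results of these data known. HMGCS1, SQLE, SREBF1, SREBF2, INSIG1, ABCA1, SCD, CH25H and ZBTB48 are given in every comparison, with up to 10 further members that passed, by size of change; other values named were chosen after they were seen. A few genes of the lists are not reported here. Promoters are the first window listed for a gene in RefSeq (GRCh38.p14).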

Additional observations from a re-analysis of the deposited data

Results flagged for a closer look

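In 10 of 124 groups of 5 libraries, 1 library stood apart by Dixon's test (critical ratio 0.71); chance gives about 6.2. In IFNγ-treated KO clones, replicate 2 was the high one for 7 genes. It had 246.6 CPM of SQLE against 80.3 to 87.1 CPM in the other 4, 169.8 CPM of CYP51A1, 145.86 CPM of HMGCS1, 74.58 CPM of MVD, 72.032 CPM of MSMO1, 47.948 CPM of NSDHL and 38.55 CPM of INSIG1. Untreated KO replicate 2 was low for NPC1, at 25.567 CPM against 64.4 to 84.9 CPM. Untreated KO replicate 1 was low for NPC2, at 254.9 CPM against 440.2 to 539.4 CPM. Untreated WT replicate 4 was high for MVD, at 58.561 CPM against 38.2 to 40.7 CPM. The cause of these was not tested.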

How the results depend on the processing

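The count of members lower after IFNγ in WT clones, 4, became 2 without the filter, 7 in DESeq2, 1 with all 20 libraries in 1 fit, 0 at the study's cut-offs and 18 with the replicate block, and 0 to 4 leaving out each clone. Over all genes the lower count went from 839 of 19522 to 587 of 33871, 1412 of 19522, 669 of 21052, 100 of 19522 and 4704 of 19522. It was 315 to 577 leaving out each clone. The members higher in WT, 0, became 2 with the replicate block, where 22.9% of all genes rose. In KO clones the lower count of members, 0, became 3 in DESeq2, 2 with all 20 libraries in 1 fit and 8 with the replicate block, and 0 to 4 leaving out each clone. Over all genes it went from 479 of 19385 to 1069 of 19385, 788 of 21052 and 1928 of 19385, and was 107 to 755 leaving out each clone. The higher count of members in KO became 1 with the replicate block and 2 with the block without KO clones 4 and 5, against 11.1% and 7.68% of all genes. Leaving out each clone within the block left 18 to 19 members lower and 2 to 2 higher in WT. In KO it left 0 to 6 lower and 1 to 2 higher, and leaving out KO clones 4 and 5 gave 0 lower. Over all genes these fits gave 3908 to 4302 lower and 3827 to 4354 higher in WT. In KO they gave 545 to 1656 lower and 1002 to 2018 higher, and 1225 lower without KO clones 4 and 5. The cause of these shifts was not tested. WT against KO and the difference of responses called 0 members in every alternative, the block by number included (r between WT and KO of one number from -0.212 to 0.23).

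Reversed signs occurred only for values that passed no test. In WT, FDPS was -0.066 with library totals, -0.014 with all 20 libraries and -0.00059 with the block, TM7SF2 -0.041 with library totals, and ABCG1 -0.068 with the block. In KO, TM7SF2 was -0.041 with library totals, -0.015 with the block, -0.067 with the block without KO clones 4 and 5 and -0.045 without them, NPC2 was -0.0026 with library totals, and FADS1 was 0.0028 with RLE, without the filter and in DESeq2. WT against KO with IFNγ gave -0.068 for HMGCS1 and -0.0054 for INSIG1 without KO clones 4 and 5, and the difference of responses gave -0.016 for SREBF2 with the block.

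Leaving out each clone in turn turned further signs. In the WT response the estimates ran from -0.19 to 0.27 for ABCG1, from -0.022 to 0.038 for FDPS and from -0.079 to 0.19 for TM7SF2. In the KO response the estimates ran from -0.070 to 0.076 for FADS1, from -0.040 to 0.12 for NPC2, from -0.018 to 0.21 for STARD4 and from -0.11 to 0.092 for TM7SF2, and within the block from -0.44 to 0.039 for SCD. For WT against KO untreated the estimates ran from -0.14 to 0.51 for ABCA1, from -0.26 to 0.11 for HMGCS1, from -0.21 to 0.10 for INSIG1, from -0.44 to 0.0060 for SQLE, from -0.0097 to 0.082 for SREBF1 and from -0.28 to 0.16 for SREBF2. For WT against KO with IFNγ the estimates ran from -0.084 to 0.21 for HMGCS1, from -0.40 to 0.22 for SQLE, from -0.11 to 0.013 for SREBF1 and from -0.29 to 0.16 for SREBF2. For the difference of responses the estimates ran from -0.11 to 0.26 for HMGCS1, from -0.072 to 0.46 for INSIG1, from -0.13 to 0.21 for SCD, from -0.16 to 0.20 for SQLE and from -0.031 to 0.12 for SREBF2.

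Depth, at 46652288 counts or more per library, did not limit the members except CH25H. Spread between clones did: the SE of the unpaired WT response reached 0.53 for ABCA1. The pairing of KO clones 4 and 5 stays doubtful in these data (r of -0.0196 and 0.0448, while each correlated with the treated library of the other at 0.585 and 0.674), and no exchange was made.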
